A study of Mus musculus with 8 samples.

Results

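Vip-type interneurons of the mouse cerebral cortex were examined in single-nucleus RNA counts: 454 nuclei of 77185 that passed the nucleus filter, or 0.588% of them. The filter kept nuclei in which 500 genes or more were detected and mitochondrial genes gave no more than 2% of the UMIs (unique molecular identifiers, each a counted RNA molecule). A member had at least 2 UMIs of Gad1 plus Gad2, at least 3 of Adarb2 and at least 2 of Vip, with at most 1 of Slc17a7, Lhx6 and Sst. They made up 8.15% of the 5573 GABA nuclei, which were defined by the same Gad1, Gad2 and Slc17a7 limits alone.

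The study profiled 8 C57BL/6J mice at postnatal day 25, with 1 library per mouse: 4 wild type (WT) and 4 Chd8+/- mice, with 2 males and 2 females of each genotype, from pairs matched by litter and sex. The dissected cortex lacked its medial part. Chd8 codes for a chromatin remodeller that is associated with autism, and the question was which genes its heterozygous loss alters in each cell type. The sources used here do not describe the Chd8 allele. In each of the 4 groups, replicate 1 had a single index and replicate 2 a dual index, so index type, which is the same as replicate number, was balanced over sex and genotype.

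Vip interneurons are born in the caudal ganglionic eminence (CGE), like the Lamp5 class, while Sst and Pvalb interneurons come from the medial ganglionic eminence. They release GABA and vasoactive intestinal peptide, and many of them inhibit other interneurons, above all Sst cells, so that their firing frees pyramidal cells from inhibition. Acetylcholine, serotonin and noradrenaline excite them, and Calb2 and Cck are classical markers of a bipolar and a basket-cell kind.

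Members numbered 222 in WT and 232 in Chd8+/- mice, 46 to 66 per library, and their counts were summed per library into 323887 to 559824 UMIs. The median nucleus held 6354.5 UMIs, with a range of 1446 to 38885, and 25 members (5.51%) were predicted doublets. Among all kept nuclei, 691 barcode sequences occurred in at least 2 libraries. Levels are given in CPM, a gene's UMIs scaled to the sum of all UMIs of the class in that library. For nuclei near the limits of the rule and for the Calb2 and Cck nuclei below, UMIs were pooled over libraries before scaling. Libraries of the same sex and genotype, which also differed in index type, were checked for being one library deposited more than once. Their counts were not the same within sampling noise (chi-square divided by its degrees of freedom, 67.8 to 140), and each counted as its own sample because it came from its own mouse.

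The label was checked with the 3 markers that took no part in the choice. Prox1, a transcription factor that keeps CGE cells on course, stood at 237 ± 40.6 CPM (SD, n = 8) in Vip nuclei, with libraries from 180 to 305. Its mean was 93.1 CPM in Lamp5 nuclei, 3.71 in Sst nuclei, 0.80 in Pvalb nuclei and 1.97 in excitatory nuclei, and 158 (135 to 171) in oligodendrocyte nuclei. Npas1, a bHLH-PAS transcription factor of forebrain interneurons, averaged 83.6 CPM (60.6 to 109, n = 8) in Vip nuclei and 72.7 in Sst nuclei, but 10.7 in Lamp5 nuclei. Htr3a, the ionotropic serotonin receptor subunit that marks CGE interneurons, stood at 28.5 ± 13.7 CPM (SD, n = 8), against 4.25 in Lamp5 nuclei, 0.19 in Sst nuclei and 0.16 in excitatory nuclei. Prox1 and Htr3a were thus highest in the nuclei chosen, whereas Npas1 did not separate them from Sst nuclei. The label stands on these markers as a description, since all genes of the chosen nuclei take part in the comparison of classes.

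Of the genes the rule used, Vip averaged 1232 CPM and ranged from 652 to 1789, and Adarb2, an RNA-binding protein of CGE interneurons, averaged 15659 CPM. The 4 single-indexed libraries held Vip at 1360 to 1789 CPM and the 4 dual-indexed ones at 652 to 1110, without overlap. Between the index types, edgeR called 214 of 6188 genes (3.46%), in a comparison chosen after seeing the data. Per nucleus the median was 6 UMIs of Vip (2 to 129) and 86 UMIs of Adarb2 (4 to 724). The 57 nuclei just inside the Vip limit, with 2 UMIs, held Prox1 at 205, Npas1 at 157 and Htr3a at 20.8 CPM. The 125 nuclei just outside, with 1 Vip UMI, held 106, 53.9 and 5.78 CPM.

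The limit on Gad1 and Gad2 did not separate nuclei by these markers. At 2 UMIs of Gad1 plus Gad2, 171 members held Prox1 at 259, Npas1 at 93.0 and Htr3a at 34.6 CPM. Another 412 nuclei met every other limit but had at most 1 UMI of Gad1 plus Gad2, and they held 232, 77.5 and 29.8 CPM, with Vip at 1550 and Adarb2 at 15807. The limit thus left out nearly as many nuclei of this profile as the 454 it kept, and the share of kept nuclei, the calls between genotypes and sexes and the Calb2 and Cck comparison were recomputed without it. By contrast, the 88 nuclei outside only for Slc17a7, the vesicular glutamate transporter of excitatory neurons, held Prox1 at 90.3 and Htr3a at 5.22 CPM.

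Grpr, Chat, Crh and Tac2 led the genes of Vip nuclei. Each gene's CPM was divided by its highest CPM among Lamp5, Sst, Pvalb and excitatory nuclei of the same library, with 1 CPM added to both, and genes were ordered by the median ratio. Grpr, the receptor for gastrin-releasing peptide, led with a median ratio of 22.7 and a mean of 49.3 CPM (23.2 to 77.2). Chat, which makes acetylcholine, followed at 18.1 and 35.7 CPM (17.2 to 62.9). Both were higher in Vip nuclei in 8 of 8 libraries.

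The promoters of Vip, Grpr and Chat are shown because, of the 9 genes among Vip and the 10 leading genes that had an entry, they hold the core of a cAMP response element. The windows run from 250 bases before to 50 after the RefSeq start, 5′ to 3′ on the gene's strand, and capitals mark TGACGT or its reverse complement ACGTCA, the only motif searched, on both strands. Among all 32851 RefSeq promoter windows of this length, from 27025 genes, 7.51% hold it. That share is counted per window and not per gene, so it is no direct measure for the count of genes above. A match is a description of letters, not of a bound site. The windows, on GRCm38.p6, are chr10:5638968-5639267 (plus strand) for Vip, chrX:163549687-163549986 (minus strand) for Grpr and chr14:32465860-32466159 (minus strand) for Chat. The motif begins 79, 80 and 172 bases before the start, respectively.
Vip: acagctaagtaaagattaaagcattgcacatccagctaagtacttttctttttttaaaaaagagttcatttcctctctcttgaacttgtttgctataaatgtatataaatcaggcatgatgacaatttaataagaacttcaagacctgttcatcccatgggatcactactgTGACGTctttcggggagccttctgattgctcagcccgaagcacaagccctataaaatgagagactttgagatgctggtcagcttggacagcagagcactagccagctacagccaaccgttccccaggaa
Grpr: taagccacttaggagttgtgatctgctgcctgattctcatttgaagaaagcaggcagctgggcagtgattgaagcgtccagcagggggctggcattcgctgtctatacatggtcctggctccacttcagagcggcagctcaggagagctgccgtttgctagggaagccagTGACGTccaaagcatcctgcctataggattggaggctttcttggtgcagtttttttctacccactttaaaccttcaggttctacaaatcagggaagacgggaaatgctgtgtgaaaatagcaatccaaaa
Chat: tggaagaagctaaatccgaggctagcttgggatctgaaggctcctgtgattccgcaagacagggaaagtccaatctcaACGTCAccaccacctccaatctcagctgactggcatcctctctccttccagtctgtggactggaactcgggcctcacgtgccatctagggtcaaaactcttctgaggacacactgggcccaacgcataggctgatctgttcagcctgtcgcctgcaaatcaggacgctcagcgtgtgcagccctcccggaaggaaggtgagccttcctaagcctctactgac

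Crh, corticotropin-releasing hormone, averaged 101 CPM (44.7 to 219) with a ratio of 15.4, and Tac2, the precursor of neurokinin B, 121 CPM (51.8 to 248) with a ratio of 14.3. Npy2r, a receptor for neuropeptide Y, averaged 24.0 CPM (ratio 10.7). The remaining leading genes were Fbln2, an extracellular matrix protein, the choline transporter Slc5a7, and 3 little-described transcripts, Gm39185, Gm45341 and 5033421B08Rik. All 10 leading genes were higher in Vip nuclei than in each of the other 4 classes in 8 of 8 libraries, which is how such a ratio is built and carries no test. Penk, the enkephalin precursor, is not among these 10 and averaged 87.7 CPM (46.4 to 145).

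**Figure D1:**
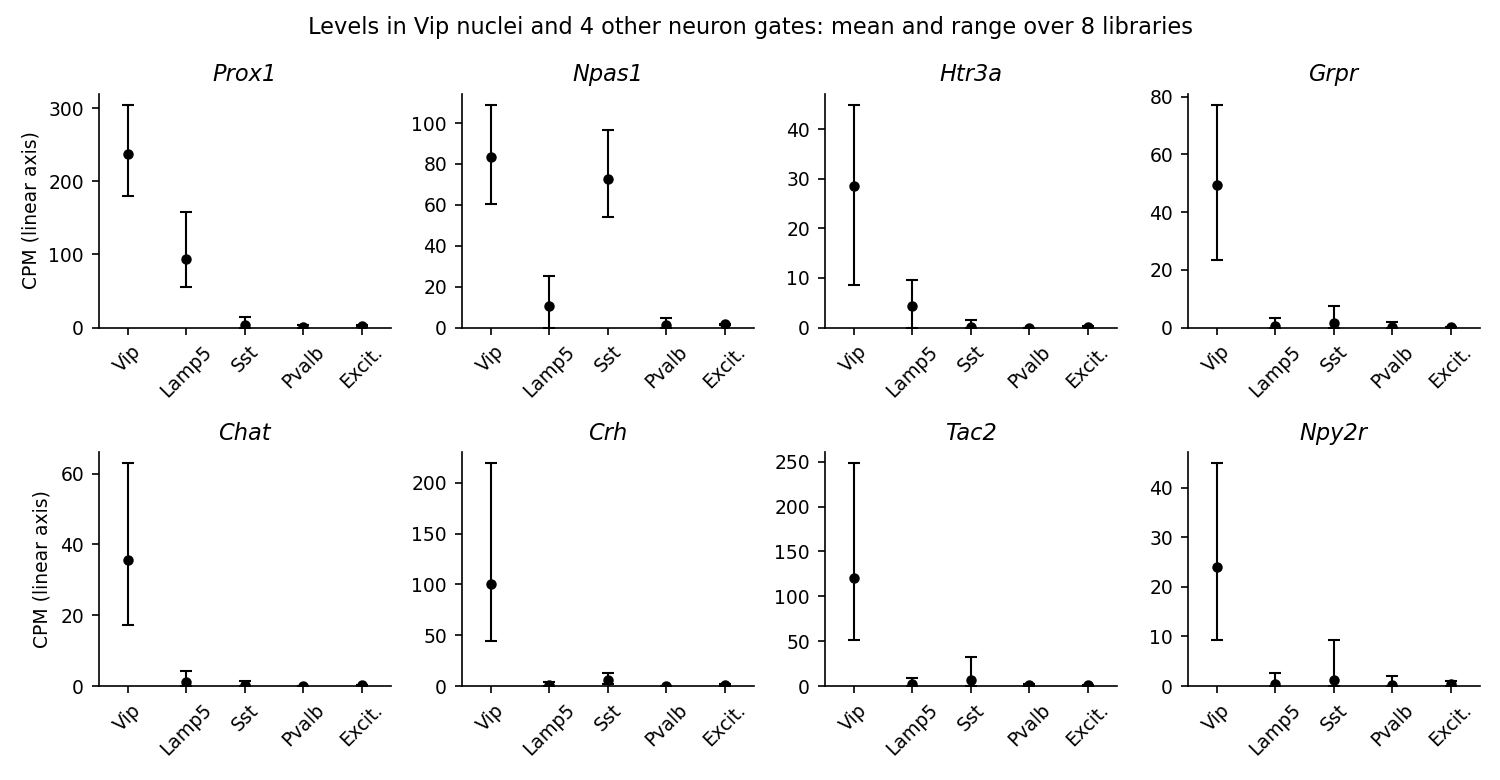
CPM on a linear axis of 8 genes in the Vip, Lamp5, Sst, Pvalb and excitatory nuclei, with points for the mean and bars for the range over 8 libraries. Grpr, Chat, Crh, Tac2 and Npy2r have their highest mean in Vip nuclei, with Tac2 reaching 32.4 CPM in a library of Sst nuclei, whereas the range of Npas1 in Vip nuclei overlaps that in Sst nuclei.

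Slc18a3, the vesicular acetylcholine transporter, had 0 UMIs among the 3370500 of all Vip nuclei, which allows up to 0.890 CPM by a limit of 3 counts over the group. It also had 0 UMIs in Lamp5, Sst, Pvalb, excitatory and oligodendrocyte nuclei, so its 0 does not set Vip nuclei apart. Its gene lies inside the Chat locus, and Chat reads could not be told from those of genes that overlap it. The use of strand in counting was not given in the sources used here. Whether reads that fit both genes were counted was not tested. The limit therefore applies to counted UMIs of Slc18a3 and not to its expression. Counting error is all that such a limit covers.

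The same nuclei carried receptors through which modulators act. Htr2c, a serotonin receptor, averaged 214 CPM (129 to 290) in Vip nuclei and 24.6 to 64.9 in the other 4 classes. Htr4, also a serotonin receptor, averaged 145 CPM (112 to 164), against 63.4 in Pvalb nuclei and 12.9 to 15.2 in the other 3. Adra1b, an adrenergic receptor, averaged 202 CPM (170 to 259), against 81.9 in Lamp5 nuclei. In contrast, Chrm3, a muscarinic receptor, was higher in Sst nuclei (1785 against 1162 CPM), and Chrna7, a nicotinic subunit, and Htr1f were higher in Lamp5 nuclei (300 against 126 and 446 against 125).

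Growth factor and cannabinoid signalling genes were also prominent. Igf1, insulin-like growth factor 1, averaged 514 CPM (399 to 655) and 131 in Lamp5 nuclei, 104 in Sst nuclei and 1.70 in excitatory nuclei. Cnr1, the cannabinoid receptor that damps transmitter release, averaged 349 CPM (231 to 430) against 165 in Lamp5 nuclei. Npy and Reln, which mark Lamp5 cells, were lower in Vip nuclei (107 and 96.2 CPM) than in Lamp5 nuclei (443 and 1249). Sox6, a transcription factor of the medial eminence lineage, was at 52.6 CPM against 1054 in Sst and 868 in Pvalb nuclei.

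Crh, Chat, Calb2, Tac2 and Penk were each detected in a minority of the members, unlike Synpr, Igf1 and Cnr1. The share detected depends on a gene's level. Chat averaged 35.7 and Calb2 18.3 CPM in Vip nuclei, against 1534 CPM for Synpr. A low share therefore need not mark a subset of the nuclei, and this was not tested. Each nucleus was thinned to 4000 UMIs so that shares could be compared across depths, which kept 392 Vip nuclei and left out 62, and 2400 excitatory nuclei were drawn, 300 per library. Crh was detected in 18.9% of thinned Vip nuclei (28.9% unthinned) and in 0.3% of thinned excitatory nuclei. Chat was detected in 10.97% (15.2% unthinned) against 0.1% in excitatory nuclei, and Calb2, the calcium buffer calretinin, in 6.6% (10.1% unthinned) against 0.1%. Tac2 was detected in 22.2% and Penk in 21.9%, against 0.3% and 1.0% in excitatory nuclei. In thinned Sst nuclei, Calb2 was detected in 2.7%, Penk in 3.4%, Crh in 1.1%, Tac2 in 0.7% and Chat in 0%. In thinned Lamp5 nuclei the shares were 0.3%, 0.7%, 0%, 1.0% and 0% in the same order. Calb2 was thus closer between Vip and Sst nuclei than between Vip and excitatory nuclei. Synpr was detected in 95.7% of thinned Vip nuclei (98.2% unthinned), Igf1 in 76.0% (86.8%) and Cnr1 in 58.2% (72.2%), against 11.1%, 0.79% and 12.9% of thinned excitatory nuclei. Synpr was also detected in 93.0% of thinned Sst nuclei and so did not set Vip nuclei apart from them, while Igf1 and Cnr1 were detected in 37.5% and 35.7% of thinned Lamp5 nuclei and in 28.4% and 23.6% of thinned Sst nuclei. Before thinning, the median depth was 6354.5 UMIs in Vip nuclei and 10901 in excitatory nuclei.

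Cck, the cholecystokinin precursor, behaved otherwise. It was detected in 24.0% of thinned Vip nuclei (37.4% unthinned), and in 23.2% of excitatory, 18.9% of Lamp5 and 13.4% of Sst nuclei. Its share in Vip nuclei was near that of excitatory neurons, which express Cck themselves, so a single Cck UMI does not set Vip nuclei apart, and the part of free RNA in it was not tested.

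Subtype genes occurred together in sets within the 392 thinned nuclei. Crispld2, a secreted protein, was found in 29 nuclei and Col15a1, a basement membrane collagen, in 40. Both were in 14 nuclei, where 3.12 would be met if they were independent within each library. Mybpc1, a myosin-binding protein, shared 14 nuclei with Crispld2 against 3.97 and 17 with Col15a1 against 5.48. Cxcl14, a chemokine, shared 24 nuclei with Htr3a against 10.8.

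Chat formed a set with the choline transporter. Chat was found in 43 and Slc5a7 in 29 nuclei, with 10 in common against 3.49, above the number for independence in 6 libraries. Chat was met less than that with Tac2, at 4 nuclei against 9.48, and with Cxcl14, at 4 against 11.2. With Penk it shared 3 against 8.89. With Mybpc1 and with Htr3a it shared 0 nuclei, against 5.77 and 4.74. Penk and Npy shared 6 nuclei against 17.1. These numbers are descriptions of 1 pool of nuclei and have no test.

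**Figure D2:**
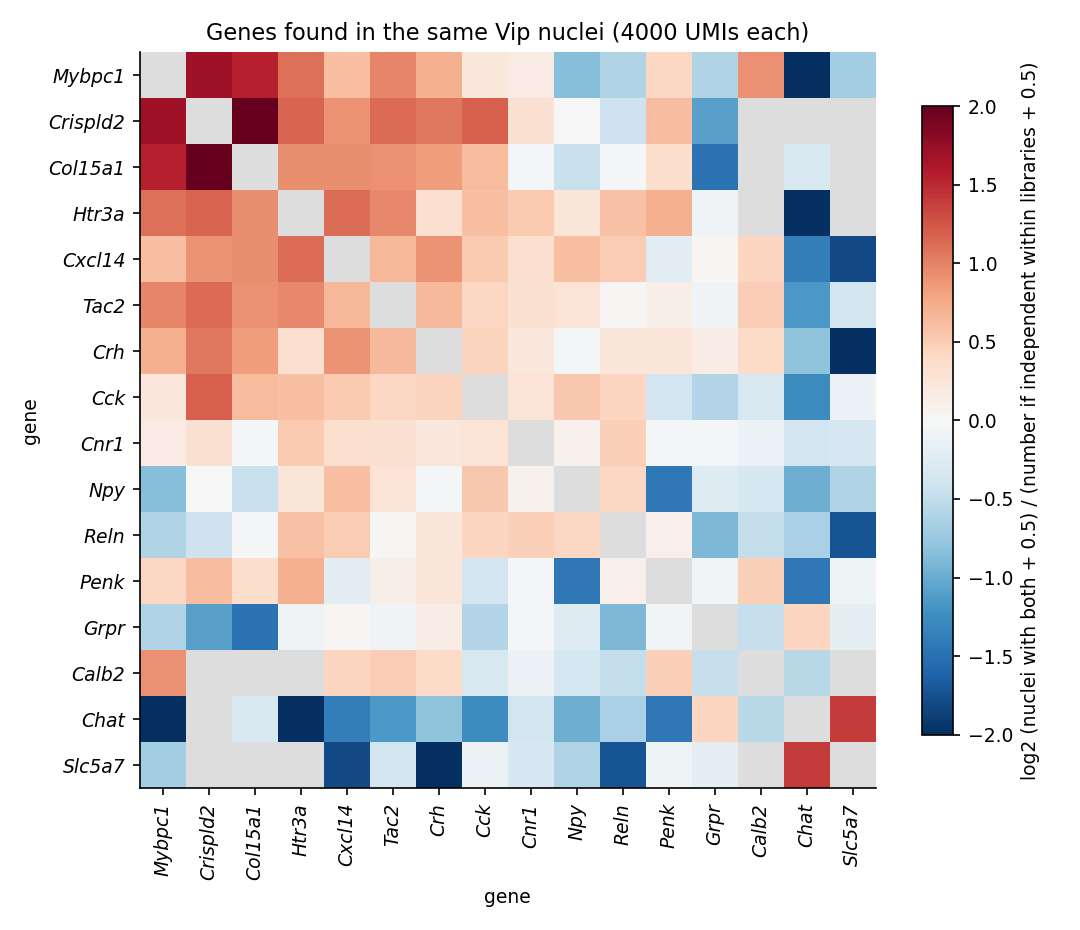
Log2 ratio of the nuclei with both genes to the number under independence within libraries, with 0.5 added to both, for pairs of genes among 392 Vip nuclei thinned to 4000 UMIs (grey, fewer than 3 nuclei under independence). Crispld2, Col15a1 and Mybpc1 pair above independence, as do Chat and Slc5a7, while Chat pairs below it with Penk, Tac2 and Cxcl14.

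The classical division was then taken within the members, with Calb2 nuclei (at least 2 Calb2 and 0 Cck UMIs) set against Cck nuclei (at least 2 Cck and 0 Calb2). Between them, 40 of 2243 genes tested (1.78%) differed by edgeR's quasi-likelihood test with Benjamini-Hochberg adjustment, 7 higher in Calb2 and 33 higher in Cck nuclei, leaving out the genes that defined the groups. Few nuclei stand behind this: 8 Calb2 nuclei with 64902 UMIs from 3 libraries (WT female 2, Chd8+/- male 1 and Chd8+/- female 2), and 59 Cck nuclei with 484592 UMIs from 8 libraries. The fit therefore rested on 3 Calb2 sums, and without WT female 2 there were 5 calls, without WT male 1 there were 23 and without Chd8+/- female 1 there were 25. Split at 1 UMI instead, 27 Calb2 nuclei (2 to 6 per library) and 151 Cck nuclei gave 109 calls of 2577 genes (4.23%), 20 higher in Calb2 and 89 higher in Cck nuclei. Both splits called 35 genes in common, each in the same direction, which are 87.5% of the first and 32.1% of the second set of calls. The second split holds the nuclei of the first.

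Kirrel3, Cadps2, Asic2, Kctd16 and Col19a1 were higher in Cck nuclei. The levels given for Calb2 and Cck nuclei are pooled over libraries and are not means of libraries. Kirrel3, a synaptic adhesion molecule of the immunoglobulin family, stood at 1417 CPM in Cck and 390 CPM in Calb2 nuclei at the 1-UMI split, and was higher in Cck nuclei in 8 of 8 libraries (log2 difference, Calb2 minus Cck, -2.52; -3.58 at the 2-UMI split). Cadps2, which primes dense-core vesicles for release, stood at 442 and 57.7 CPM (log2 -3.45, 8 of 8 libraries). Asic2, a proton-gated cation channel, and Kctd16, an auxiliary subunit of GABA-B receptors, also differed in 8 of 8 libraries (log2 -1.99 and -1.90). Col19a1, a collagen, stood at 193 and 19.2 CPM (log2 -3.68). Cadps2 and Kirrel3 had adjusted p-values of 1.4e-08 and 3.9e-08 at the 1-UMI split by edgeR.

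Cnr1, with which cholecystokinin basket cells are known to gate their output, stood at 528 CPM in Cck and 178 CPM in Calb2 nuclei, higher in Cck nuclei in 8 of 8 libraries (log2 -1.65, edgeR adjusted p 6.2e-05; at the 2-UMI split log2 -2.72, adjusted p 0.0017). Reln, a secreted guidance protein, was also called in both splits (log2 -2.29 and edgeR adjusted p 0.0051 at 1 UMI; -4.04 and 0.0012 at 2 UMIs). Col25a1, a transmembrane collagen, had 0 UMIs in the 8 Calb2 nuclei and 117 in the 59 Cck nuclei. Luzp2, Grip1 and Kcnip4 made up the remaining genes of smallest p in this direction.

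Among the 7 genes higher in Calb2 nuclei at the 2-UMI split were Ryr3, Gpc6, Frmpd4, Ntm, Wnt5b and Mgat4c. Ryr3, a calcium release channel of internal stores, stood at 495 CPM in Calb2 and 167 CPM in Cck nuclei at the 1-UMI split, higher in 8 of 8 libraries (log2 1.48; 3.23 at 2 UMIs). Gpc6, a glypican that organizes synapses, was higher in 7 of 8 (log2 1.37; 2.46 at 2 UMIs), as was Wnt5b, a Wnt ligand (log2 1.18; 2.63).

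Of the listed Vip subtype genes, the 1-UMI split called Crh (log2 -2.32, edgeR adjusted p 0.0102), Htr1f (-1.56, 0.0273) and Synpr, a synaptic vesicle protein (-0.67, 0.0453), along with Cnr1 and Reln. Tac2 (-1.51, edgeR adjusted p 0.0520), Penk (1.24, 0.117) and Slc5a7 (2.41, 0.117) were not called. At the 2-UMI split Cnr1 and Reln were the listed genes called. As a description of level, Tac2 was higher in Cck nuclei in 7 of 8 libraries, whereas Penk and Slc5a7 were higher in Calb2 nuclei in 6.

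**Figure D3:**
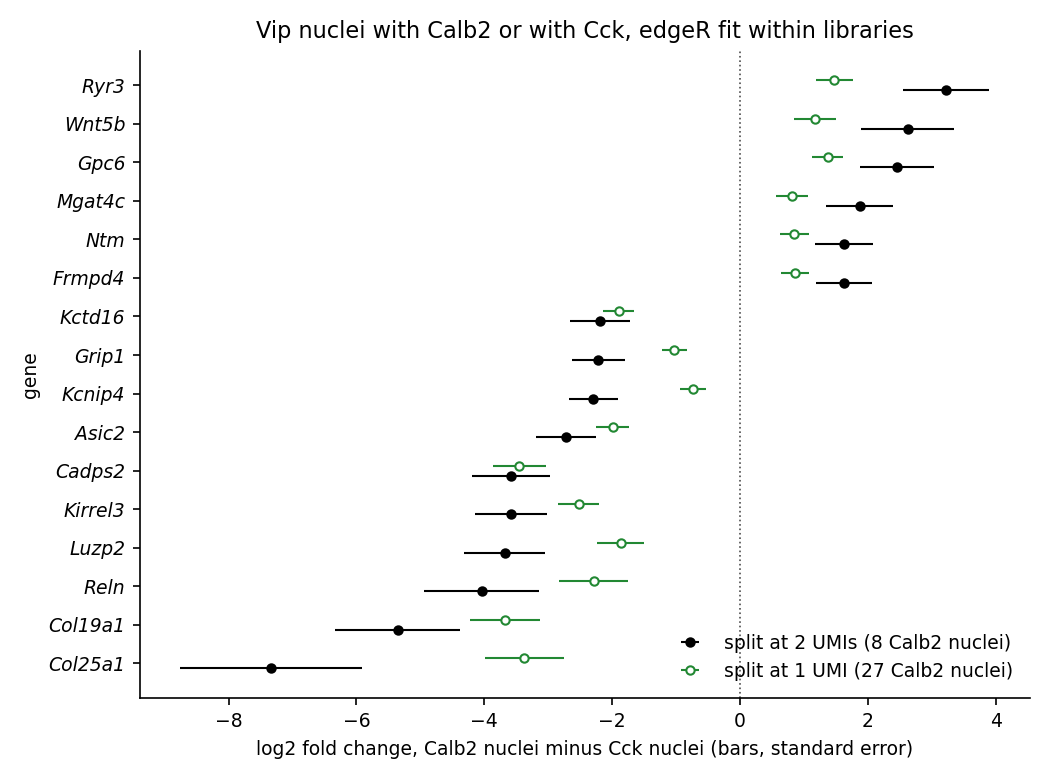
Log2 difference, Calb2 minus Cck nuclei, of the genes of smallest p at the 2-UMI split that were also called at the 1-UMI split, for the split at 2 UMIs (filled, 8 Calb2 nuclei) and at 1 UMI (open, 27 Calb2 nuclei), with bars of 1 SE. Kirrel3, Cadps2 and Col19a1 lie below 0 and Ryr3 and Gpc6 above it at both splits.

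The share of Vip nuclei did not differ between genotypes beyond the spread of the libraries. As percent of kept nuclei, the WT libraries (male 1, male 2, female 1, female 2) held 0.554, 0.744, 0.462 and 0.625, and the Chd8+/- libraries in the same order 0.518, 0.663, 0.630 and 0.547. The means were 0.596 ± 0.119% and 0.589 ± 0.0681% (SD, n = 4 each), and the groups overlapped (exact permutation test, two-sided, p = 0.914). Of GABA nuclei they were 8.10 ± 0.790% and 8.33 ± 1.34% (exact permutation p = 0.829, n = 4 each). The difference in percent of kept nuclei was 0.0662 points among single-indexed and -0.0793 points among dual-indexed libraries.

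Median depth was 6680.5, 8252, 5787 and 6855 UMIs per Vip nucleus in WT and 5353, 5754, 5885 and 7700 in Chd8+/- libraries. It averaged 6894 ± 1019 and 6173 ± 1043 (SD, n = 4 each; exact permutation p = 0.371). The difference was -721 UMIs, -277 without the limit on Gad1 and Gad2, -268 without WT male 2, -447 without Chd8+/- male 1, -1090 without WT female 1 and -1230 without Chd8+/- female 2. The Calb2 share of Calb2 plus Cck nuclei was 0, 0, 0 and 33.3% in WT and 18.2, 0, 0 and 50% in Chd8+/- libraries (exact permutation p = 0.714, n = 4 each), on 4 to 14 nuclei per library. At the 1-UMI split it was 12.5, 16.7, 16.7 and 17.4% in WT and 12, 14.8, 5.88 and 35.3% in Chd8+/- libraries. With 4 libraries in each group the smallest p this test can give is 0.0286, and over the 4 pairs the exact sign-flip test can give no less than 0.125.

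Chd8 itself was measured first among the genotype comparisons. Its level in Vip nuclei was 66.2, 73.2, 123 and 80.6 CPM in WT libraries and 57.4, 77.8, 55.2 and 72.2 CPM in Chd8+/- libraries. The Chd8+/- library was lower in 3 of 4 pairs, and the groups overlapped, with WT female 1 the highest. The means were 85.9 ± 25.8 and 65.7 ± 11.1 CPM (SD, n = 4 each), a log2 difference of -0.39 (SE 0.23, edgeR adjusted p 0.999) on 20 to 41 UMIs per library. The log2 difference was -0.21 without WT female 1 and -0.17 with no limit on Gad1 and Gad2. A 3′ count need not separate the alleles, and Gm26590 overlaps the gene, so this level is no check of the labels. In excitatory nuclei, with 16216 UMIs of Chd8, it stood at 76.5 ± 3.55 CPM in WT and 79.0 ± 6.14 CPM in Chd8+/- libraries (SD, n = 4 each), lower in 2 of 4 pairs. The means were 95.7 and 76.7 CPM in Lamp5 nuclei, 93.9 and 87.4 in Sst nuclei and 72.6 and 80.5 in Pvalb nuclei. The genotypes are therefore given as labelled, without support from the level of Chd8.

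No gene was called between the genotypes in Vip nuclei: 0 of 6188 tested (0%) by edgeR's quasi-likelihood test with a sex term, and likewise 0 with a term for each pair or by DESeq2. Those with an unadjusted p below 0.05 numbered 208 by edgeR (90 higher and 118 lower in Chd8+/-), 333 with the pair term and 73 by DESeq2. On simulated counts with the same libraries, the test with a sex term recovered 46 of 92 genes changed 2-fold and 87 of 90 changed 4-fold, so smaller changes could pass unseen with these libraries. WT and Chd8+/- libraries did not overlap for 156 genes (2.52%), and 788 genes (12.7%) had the same direction in 4 of 4 pairs.

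Of the class markers that the rule did not use, the log2 differences, Chd8+/- minus WT, were 0.02 for Prox1, -0.03 for Npas1 and -0.28 for Htr3a, and none was called. Vip and Adarb2 chose the nuclei, so their differences of -0.02 and -0.07 are a description and do not show that their level was alike. Prox1 stood at 180, 209, 235 and 305 CPM in WT and 209, 281, 228 and 249 in Chd8+/- libraries. 

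The genes below are among the 15 of smallest p in the fit with a pair term that had the same direction in 4 of 4 pairs, and they are given as values, since none was called in the fit with a sex term. Their pair direction was part of the choice. Their loci on GRCm38 include Rgs20 at chr1:4909576-5070285 and Slc35f1 at chr10:52690533-53111622. Reads of Rgs20, Slc35f1 and Gpr176 could not be told from those of counted genes that overlap them (Gm16041 and Atp6v1h, Gm47622, and 1700054M17Rik, respectively), as with Prox1 (Prox1os and Gm28172) and Htr3a (Gm32335).

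With a term for index type added, edgeR called 1 gene of 6188 (0.0162%).

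Rgs20, a regulator that shortens G-protein signals, stood at 90.0, 116, 71.0 and 96.4 CPM in WT and 54.5, 51.9, 55.2 and 39.6 CPM in Chd8+/- libraries. All 4 Chd8+/- libraries lay below all 4 WT libraries (log2 -0.95, SE 0.22, edgeR adjusted p 0.934). It averaged 50.4 and 43.4 CPM (WT and Chd8+/-) in Lamp5 nuclei, lower in 2 of 4 pairs, 126 and 119 CPM in excitatory nuclei, lower in 3, and 31.6 and 46.4 CPM in Pvalb nuclei, lower in 2. In Sst nuclei it stood at 94.4 and 113 CPM, higher in 4 of 4 pairs. The difference between Vip and Sst nuclei was -1.20 (SE 0.26), which missed the threshold (edgeR adjusted p 0.146). It was called with no filter on low counts (log2 -1.19, SE 0.28, edgeR adjusted p 0.0405). Rgs20 was chosen for its difference in these Vip nuclei, so that call is no separate support.

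Slc35f1, a member of the solute carrier family, stood at 823, 815, 760 and 875 CPM in WT and 496, 594, 560 and 676 CPM in Chd8+/- libraries. The groups did not overlap (log2 -0.54, SE 0.14, edgeR adjusted p 0.997). Its level was 448 and 446 CPM in Sst nuclei, and the difference between the classes was -0.52 (edgeR adjusted p 0.639).

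Among receptors, Htr1f, an inhibitory serotonin receptor, stood at 169, 134, 127 and 189 CPM in WT and 103, 73.1, 82.8 and 124 CPM in Chd8+/- libraries. Gpr176, an orphan receptor of the circadian clock, stood at 183, 157, 195 and 185 CPM against 123, 89.6, 141 and 114. Neither gene's libraries overlapped (log2 -0.75, SE 0.21, and -0.67, SE 0.17). Cadps2 stood at 303 ± 89.1 and 187 ± 61.4 CPM and Trpc6, a cation channel, at 151 ± 75.2 and 83.0 ± 21.5 CPM (WT and Chd8+/-, SD, n = 4 each), with overlapping libraries. The antisense transcripts Gm29514, which overlaps Brinp3 (112 ± 15.9 and 67.3 ± 13.5 CPM), and 4930415C11Rik, which overlaps Ntrk2 (190 ± 92.6 and 111 ± 27.5 CPM), could hold reads of those genes. Pde10a, a phosphodiesterase, stood at 712, 2436, 676 and 1998 CPM in WT and 565, 1926, 477 and 1224 CPM in Chd8+/- libraries, lower in 4 of 4 pairs, and was higher in every dual-indexed library than in any single-indexed one. Its log2 difference was -0.54 (SE 0.40), and -0.52 (SE 0.11, edgeR adjusted p 0.122) with a term for each pair. It ran from -1.01 without Chd8+/- male 2 to -0.14 without WT female 2.

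Mbp, the myelin basic protein of oligodendrocytes, was the gene of smallest p that was higher. It stood at 114, 116, 52.5 and 66.9 CPM in WT and 138, 231, 130 and 221 CPM in Chd8+/- libraries, without overlap (log2 1.03, SE 0.24, edgeR adjusted p 0.934). Mbp stood at 5529 CPM in oligodendrocyte nuclei, and the source of its RNA in Vip nuclei was not tested. The 7 oligodendrocyte markers summed to 219 to 448 CPM in WT and 364 to 713 CPM in Chd8+/- Vip nuclei (exact permutation p = 0.143, n = 4 each), and none of the 7 was at 0. Their sum in Chd8+/- against WT libraries was 429 against 243 CPM in Sst nuclei, 208 against 140 in Pvalb nuclei, 320 against 259 in excitatory nuclei and 310 against 324 in Lamp5 nuclei. 

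Without the 25 predicted doublets the Mbp difference was not seen. Mbp then stood at 114, 78.2, 55.0 and 70.5 CPM in WT and 65.0, 82.8, 136 and 57.1 CPM in Chd8+/- libraries, and the groups overlapped (log2 0.08, edgeR adjusted p 0.999). The oligodendrocyte markers then summed to 230 to 372 CPM in WT and 189 to 379 CPM in Chd8+/- libraries (exact permutation p = 0.714, n = 4 each).

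Cox8a, a subunit of cytochrome c oxidase, stood at 50.3, 26.8, 64.8 and 53.1 CPM in WT and 103, 104, 135 and 60.6 CPM in Chd8+/- libraries, where Chd8+/- female 2 lay within the WT range. Snrnp40, a spliceosome component, stood at 10.6, 10.7, 9.26 and 21.6 CPM against 57.4, 28.3, 32.6 and 37.3, without overlap (log2 1.45, SE 0.39). Srcin1, a regulator of the kinase Src at synapses, stood at 83.6 ± 13.1 and 138 ± 15.3 CPM, also without overlap. Syt17, a synaptotagmin, stood at 31.0 ± 16.7 and 65.7 ± 12.5 CPM (WT and Chd8+/-, SD, n = 4 each).

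Some of these genes lay the same way in other classes. Trpc6 averaged 342 and 236 CPM (WT and Chd8+/-) in Sst nuclei, lower in 4 of 4 pairs. Pde10a was lower in 4 of 4 pairs in Sst nuclei (1589 and 1015 CPM) and in excitatory nuclei (1374 and 996 CPM). The same held for 4930415C11Rik in Lamp5 nuclei (221 and 143 CPM) and excitatory nuclei (150 and 70.6 CPM), and for Gm29514 in Pvalb nuclei (58.0 and 39.9 CPM), while Snrnp40 was higher in 4 of 4 pairs in Pvalb nuclei (26.2 and 34.7 CPM). An earlier analysis had called 4930415C11Rik in other classes or in CGE interneurons, so its direction there is no separate support. Cadps2 lay the opposite way in Lamp5 nuclei, at 57.2 and 110 CPM, higher in 4 of 4 pairs. The other genes above, apart from Rgs20 in Sst nuclei, had no class besides Vip nuclei with 4 of 4 pairs in 1 direction. In Vip nuclei that direction was how the genes were chosen, so this does not make their differences particular to Vip nuclei. The share of all genes with 4 of 4 pairs in 1 direction is not given for the other classes.

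Without the limit on Gad1 and Gad2, 0 of 8451 genes were called by edgeR (225 at an unadjusted p under 0.05). The log2 differences of Slc35f1, Gpr176, Cadps2 and Gm29514 were then -0.32, -0.36, -0.40 and -0.49, and those of Cox8a, Srcin1 and Syt17 were 0.54, 0.36 and 0.38. Mbp was at 0.91. Rgs20 was at -0.55 with each nucleus thinned to 4000 UMIs, which left out 62 members. Htr1f was at -0.45 with the looser gate of at least 1 Vip UMI, and 4930415C11Rik at -0.49 without WT male 2. Over 20 other settings the 15 genes gave 299 values, of which 0 had the opposite sign and 3 were called, among them Mbp in 1 setting. These settings reused mostly the same libraries, and the genes had been chosen for their direction in those libraries. The absence of opposite signs was therefore favoured by the choice and is no separate support for the differences.

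**Figure D4:**
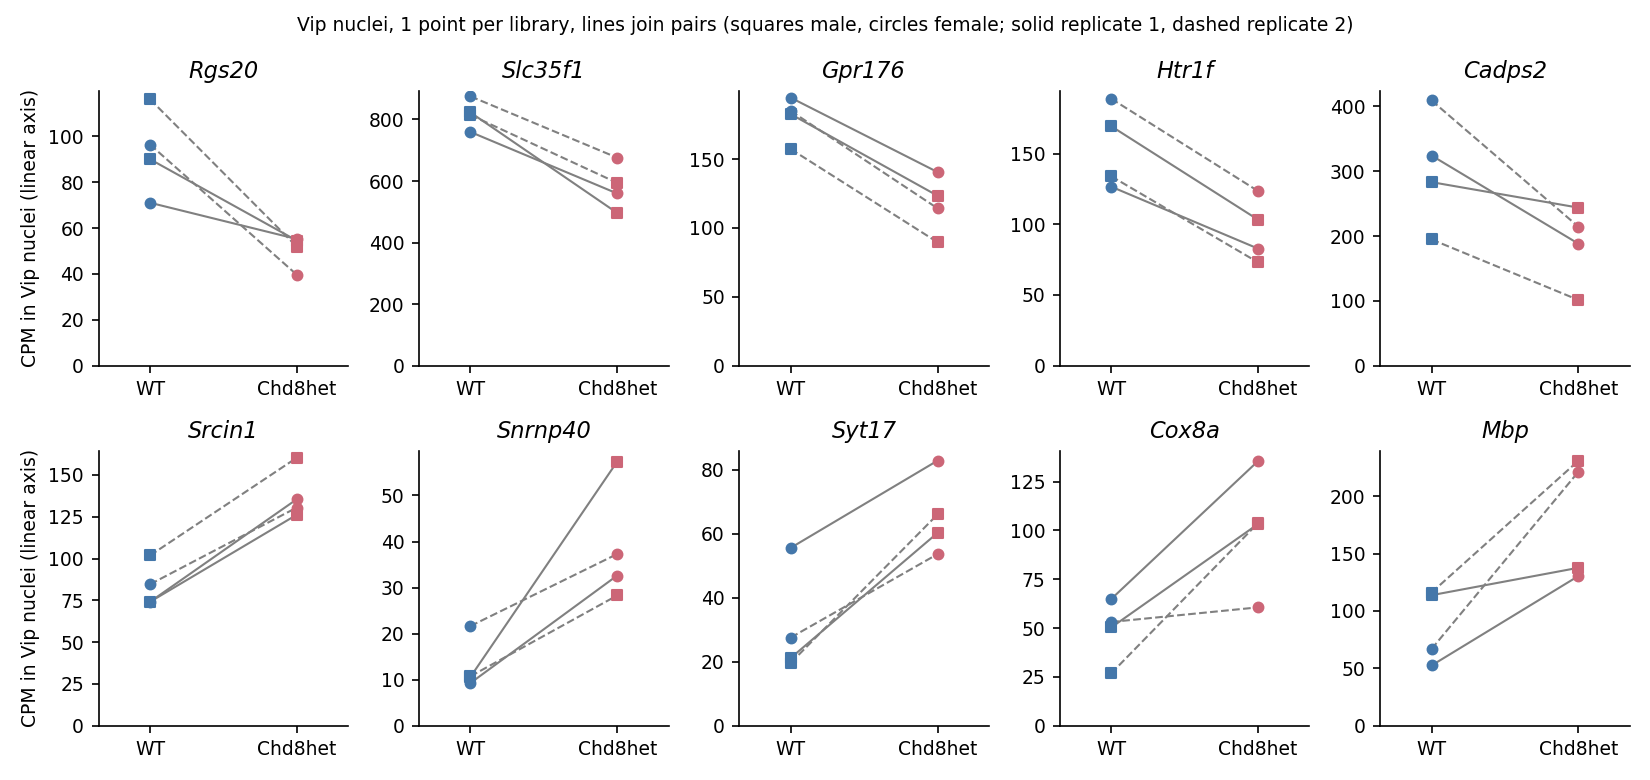
CPM in Vip nuclei of named genes in the 4 WT and 4 Chd8+/- (Chd8het) libraries, with lines that join each pair (squares male, circles female, solid replicate 1, dashed replicate 2). Rgs20, Slc35f1, Htr1f and Mbp show no overlap between the genotypes, and Cadps2 and Cox8a do; edgeR called none of them with the sex term.

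Il1rapl2, a synaptic adhesion protein of the interleukin-1 receptor family, is named outside the rule, after its values were seen. It stood at 82.0, 129, 49.4 and 82.6 CPM in WT and 488, 123, 123 and 340 CPM in Chd8+/- libraries (log2 1.57, SE 0.37, edgeR adjusted p 0.934). The groups overlapped, with Chd8+/- male 1 and female 2 far above the rest. Of the settings tried, it was called in the fit without Chd8+/- male 2 (log2 1.93, edgeR adjusted p 0.0419) and in the fit with no filter on low counts. Of 2 other genes in the rule, 5330434G04Rik differed by -0.23 (SE 0.16) and Maml3, a Notch coactivator, by -0.35 (SE 0.21), and neither was called. Without 1 library they ran from -0.39 (without WT female 2) to -0.15 (without WT male 1) and from -0.51 (without WT male 1) to -0.15 (without WT male 2), respectively. Maml3 was lower in 4 of 4 pairs in Lamp5, Sst and excitatory nuclei, and 5330434G04Rik in excitatory nuclei. Both were named because an earlier analysis called them in other classes or in CGE interneurons. Their direction in those classes is therefore no separate support.

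The listed genes of the class's identity leaned in neither direction. Of the 18 transcription factors tested of 28 listed, 9 were higher and 9 lower with a median log2 difference of -0.00, among them Npas3 (2265 ± 520 and 2122 ± 142 CPM) and Zeb2 (1034 ± 84.9 and 947 ± 108 CPM; WT and Chd8+/-, SD, n = 4 each). The neuropeptide and receptor genes tested, without Vip, which the rule used, numbered 14 of 40 listed and had 7 higher and 7 lower (median 0.04), with Igf1 at 511 ± 97.9 and 516 ± 84.5 CPM. The 18 subtype genes tested of 28 had 8 higher and 10 lower (median -0.03), with Synpr at 1519 ± 288 and 1550 ± 185 CPM. Of 12 modulator receptor genes tested of 35, 5 were higher and 7 lower (median -0.09). Over all 6188 genes, 3166 were higher and 3022 lower with a median of 0.01, and in no list was a gene called with the sex term.

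The medians of the synaptic lists were also near 0. The GABA genes tested, without Gad1 and Gad2, which the rule used, numbered 19 and had 11 higher and 8 lower (median 0.05), with Gabrg3, a GABA-A receptor subunit, at 1797 ± 73.0 and 1658 ± 379 CPM. The 22 glutamate receptor genes tested of 24 had 10 higher and 12 lower (median -0.02), and the 33 voltage-gated channels tested of 41 had 13 higher and 20 lower (median -0.04). Of 43 adhesion genes tested of 44, 16 were higher and 27 lower (median -0.08). Nrxn3, a presynaptic organizer, stood at 12333, 13292, 13529 and 14734 CPM in WT and 11812, 11681, 12285 and 11599 CPM in Chd8+/- libraries, which did not overlap (log2 -0.23, SE 0.11, edgeR adjusted p 0.999). Erbb4, the neuregulin receptor of interneurons, was at a log2 difference of 0.00.

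Of 84 autism-associated genes tested of 103, 37 were higher and 47 lower (median -0.03), and of 34 chromatin remodellers tested of 43, 21 were higher and 13 lower (median 0.06). Genes of ribosomes and the respiratory chain were mostly higher, none of them called. Of 41 ribosomal protein genes tested of 82, 39 were higher and 2 lower in Chd8+/- (median 0.40, from -0.18 to 1.01), and 5 had an unadjusted p under 0.05. Of 39 nuclear genes of oxidative phosphorylation tested of 74, 31 were higher and 8 lower (median 0.17). Without the predicted doublets, 33 of 38 ribosomal protein genes tested were higher (median 0.38), and 30 of 35 oxidative phosphorylation genes (median 0.16). With no limit on Gad1 and Gad2 the counts were 55 of 71 (median 0.21) and 49 of 63 (median 0.14). With nuclei thinned to equal depth they were 9 of 10 (median 0.25) and 7 of 12 (median 0.07). Fewer genes were tested at equal depth, and the oxidative phosphorylation genes then leaned little in either direction. The 3 oligodendrocyte markers tested had 3 higher (median 0.63) with all members and 1 higher (median -0.12) without the doublets.

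Markers of the other types were also summed. The 12 excitatory markers summed to 646 and 669 CPM (WT and Chd8+/- means), the 6 Sst markers to 342 and 383, the 7 astrocyte markers to 369 and 409 with Agt at 0, and the 7 microglia markers to 179 and 206. The excitatory list holds Slc17a7, the Sst list holds Sst and Lhx6, and the Pvalb list holds Lhx6. The rule capped these genes, so part of those sums was set by the choice of nuclei. The 8 vascular markers, with Dcn at 0, summed to 7.15 to 9.83 CPM in WT and 11.7 to 20.1 in Chd8+/- libraries (exact permutation p = 0.0286, the smallest this test can give; 0.257 adjusted over the 9 marker lists).

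**Figure D5:**
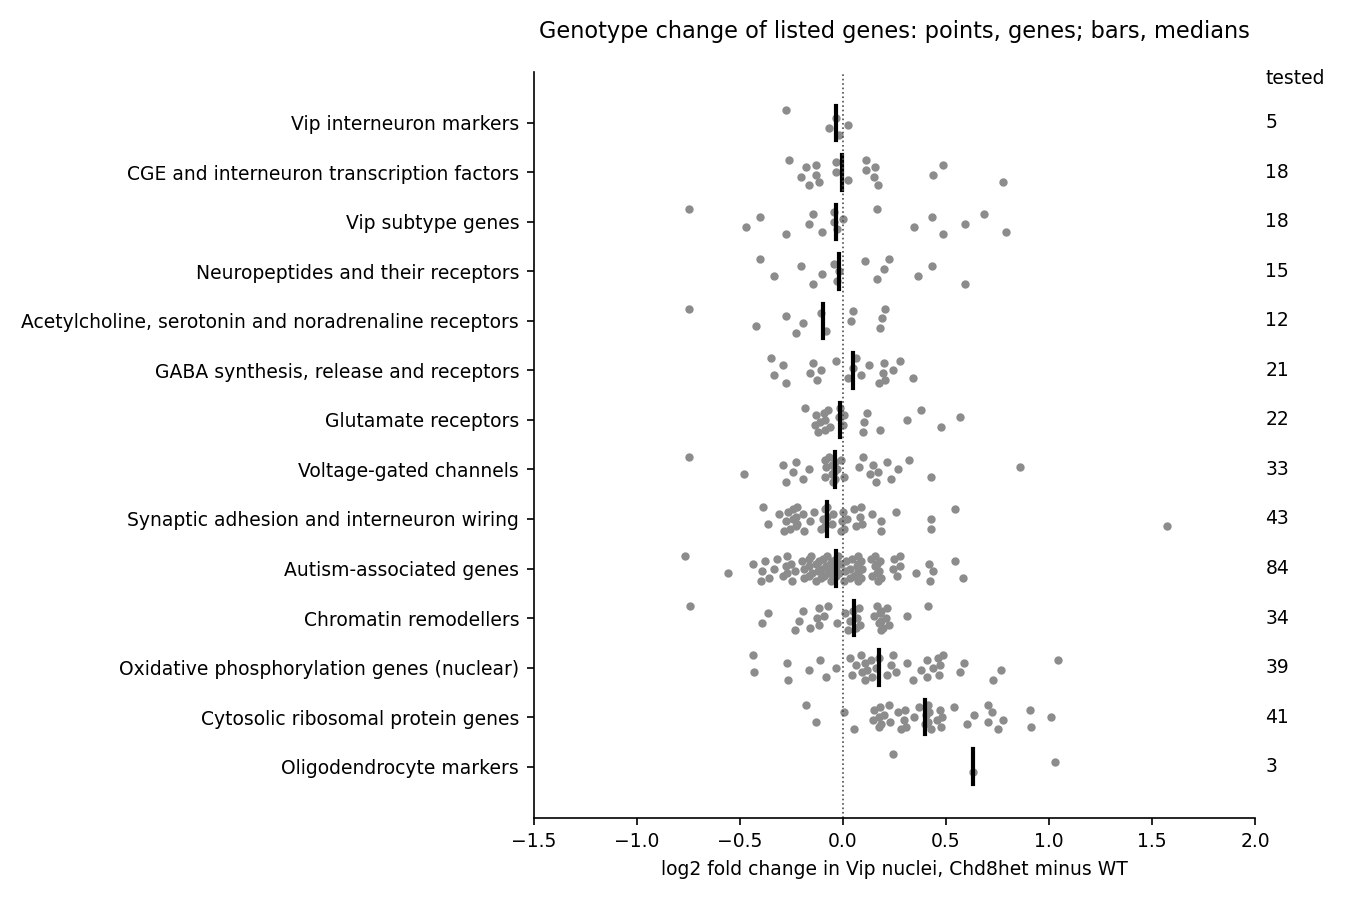
Log2 difference, Chd8+/- minus WT, of each tested gene in Vip nuclei by list (points), with the list's median (bars) and the number tested. Of the lists shown, the medians farthest from 0 are those of oligodendrocyte markers at 0.63, ribosomal protein genes at 0.40 and oxidative phosphorylation genes at 0.17.

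The difference of the genotype effect between classes was tested directly. Against Lamp5 nuclei (305), edgeR called 0 of 7394 genes (0%), with 315 at an unadjusted p under 0.05, against 0 called and 41 by DESeq2. Against Sst nuclei (463), edgeR called 0 of 8383 genes (0%), with 450 at an unadjusted p under 0.05, against 0 called and 80 by DESeq2. For Mbp the difference against Lamp5 nuclei was 1.28 (SE 0.35, edgeR adjusted p 1.00), with predicted doublets left in. With no filter on low counts, Cadps2 was called against Lamp5 nuclei (log2 -1.53, edgeR adjusted p 0.0032), and Gm29514 (-1.29, 0.0416), Il1rapl2 (1.48, 1.48e-07), Erbb4 (-0.73, 0.00018) and Htr2c (-1.94, 1.3e-06) were among the genes called against Sst nuclei. Erbb4 had no such difference between genotypes in Vip nuclei alone, as given above. These p-values belong to the unfiltered fit, in which the SE of Cadps2 was 0.29 against 0.64 with the filter. For Gm29514 it was 0.31 against 0.29. Cadps2 and Gm29514 had been chosen for their difference in Vip nuclei, so these calls are no separate support. The SE of Il1rapl2 in Vip nuclei was 0.205 in the unfiltered fit, below that given above. The simulated test of the difference against Lamp5 nuclei recovered 28 of 100 genes changed 2-fold and 83 of 100 changed 4-fold. It gave all genes in both classes the same spread, the median over genes in Vip nuclei. Recovery in the real counts could therefore differ.

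Between the sexes, 6 of 6188 genes (0.097%) were called by edgeR in Vip nuclei, all on the sex chromosomes. Xist, which silences an X chromosome, stood at 1129 ± 274 CPM (SD, n = 4) in females and 0 in males. Tsix, its antisense partner, was called with it and cannot be told from it without strand. Uty, a Y-linked demethylase, stood at 118 ± 16.4 CPM (SD, n = 4) in males and 0 in females, and Eif2s3y and Kdm5d at 121 and 48.1 CPM in males. Ddx3y, a Y-linked helicase, stood at 38.9 CPM in males and 2.38 CPM in females (log2 -3.88, edgeR adjusted p 0.0047). With replicate number as a block there were 11 calls, which added Gulp1 (log2 1.32), Cntnap5b (0.75), Zfp804a (0.60), Gm26854 (1.38) and Malat1 (0.40), all higher in females.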

How the data were processed

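Single-nucleus libraries were made with the 10x Genomics 3' v3 chemistry, per the labels' protocols. The files deposited by the authors hold raw whole-number UMI counts per gene and barcode, 97772 barcodes in 8 libraries; the submitters' processing notes name mm10, STAR 2.7.9a, Cell Ranger and STARsolo. Strand use in counting is not given in the sources used here. Intervals and limits cover counting error only.

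The members and gene lists, and the rule for named genes, were chosen with earlier results of these data known. Counts were summed per library over the nuclei of a class. Genes were tested with edgeR 4.0.16 (R 4.3.3; quasi-likelihood test, TMM scaling, filterByExpr with a minimum count of 10, two-sided, Benjamini-Hochberg at 0.05 over all genes tested) with terms for sex and genotype; Calb2 against Cck nuclei and differences between classes used a library block. DESeq2 1.42.0 was the alternative test. Single values were compared by an exact permutation test over libraries, two-sided. TMM factors were 0.967 to 1.03, so plain CPM are close to the scaled values. Predicted doublets (Scrublet in scanpy 1.11.5) were left in and removed as an alternative. The Pvalb gate (at least 2 Pvalb UMIs, at most 1 of Sst and Adarb2, 0 of Vip) and the alternative with no limit on Gad1 and Gad2 were chosen after seeing the data.

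Genes were named by rule. The rule took the 5 markers, Chd8 and 3 genes called in other classes or in CGE interneurons by an earlier analysis. Up to 15 genotype calls were taken. Failing those, the rule took the genes of smallest p with a pair block and the same direction in 4 of 4 pairs. Sex calls were named, as were the 10 of smallest p in each direction between Calb2 and Cck nuclei, with tested subtype genes. Up to 4 highly expressed members of each list and the 10 leading genes by ratio at 20 CPM or more completed it.

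The labels give litter- and sex-matched pairs without saying which libraries form one, so libraries of equal sex and replicate number were checked as pairs. Their deviations from the means of their genotype correlated across genes at 0.168 to 0.266 in the 4 pairs (-0.313 to 0.122 in other combinations). They were taken as pairs. Such libraries share both sex and index type, which no other combination of WT and Chd8+/- libraries does. The correlation therefore cannot show a shared litter. Gene coordinates are from GENCODE M21 (GRCm38; 32235 of 32285 identifiers matched). The genotype test was tested on simulated data of 5909 genes, where 5 unchanged genes were called; the interaction with Lamp5 nuclei, on 5331 genes, called 6 unchanged ones. Of the genes this rule names, 2 are not reported here.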

Additional observations from a re-analysis of the deposited data

Results flagged for a closer look

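In WT female 2 the Calb2 share of Calb2 plus Cck nuclei was 33.3% (3 of 9 nuclei), whereas the other 3 WT libraries were at 0% (of 7, 4 and 8 nuclei). At the 1-UMI split it was 17.4% (4 of 23) and the others were at 12.5 to 16.7%, so it did not stand apart there. The same library had Snrnp40 at 21.6 CPM in Vip nuclei, with the other WT libraries at 9.26 to 10.7 CPM. The 33.3% and the Snrnp40 value stood far from the other libraries of their group; 56 groups of 4 were examined, 2 gave such a value, and chance alone gives about 1 in 20.

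The median depth of Vip nuclei differed in opposite directions by sex. Both male pairs were lower in Chd8+/- (mean difference -1912.75 UMIs per nucleus) and both female pairs higher (471.5). Prox1 did the reverse, with both male pairs higher in Chd8+/- (mean difference 50.5 CPM) and both female pairs lower (-30.9 CPM). Neither difference between the sexes was tested.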

How the results depend on the processing

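With 46 to 66 nuclei in each of 4 libraries per genotype, the test recovered 46 of 92 simulated 2-fold and 87 of 90 4-fold changes; depth and spread between libraries were not separated. The 0 genotype calls became 3 with no filter on low counts, 1 with an index type term and 0 to 1 when a library was left out (1 without Chd8+/- male 2). The 6 sex calls became 10 with no filter and 11 with the replicate number as a block, and 5 to 8 without 1 library. The difference of genotype effects against Lamp5 nuclei gave 1 call at the looser gate (at least 1 Vip UMI) and 3 with no filter. Against Sst nuclei it gave 1 at the looser gate, 19 with no filter and 0 to 3 without 1 library (3 without WT female 1 or Chd8+/- female 1, 1 without Chd8+/- female 2). The 40 calls between Calb2 and Cck nuclei became 3 at the stricter gate, 109 at the 1-UMI split, 104 with no limit on Gad1 and Gad2, 19 with no filter, 18 by DESeq2, 14 with no replicate block, and 5 to 45 without 1 library. The causes were not tested.

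The genotype difference in percent of kept nuclei (-0.00654) changed sign at the looser gate (0.0246) and with no limit on Gad1 and Gad2 (0.0484), and ran from -0.0513 to 0.0427 without 1 library. That in median depth ran from -1230 to -267.8 UMIs without 1 library. That in percent of GABA nuclei ran from -0.349 to 0.734 and that in the Calb2 share from -2.27 to 17.05 (the negative value without Chd8+/- female 2). For markers near 0 the sign also moved. Vip was at 0.0053 at the stricter gate, 0.077 with no limit on Gad1 and Gad2, 0.0048 with the pair block and 0.023 with an index type term. Prox1 was at -0.063 at the looser gate, -0.047 without predicted doublets and -0.018 with no limit on Gad1 and Gad2, and Npas1 at 0.050 at the stricter gate, against -0.41 at the looser gate and -0.21 thinned to equal depth. Without 1 library, Vip ran from -0.286 to 0.240, Adarb2 from -0.157 to 0.0043, Prox1 from -0.115 to 0.164, Npas1 from -0.236 to 0.128 and Htr3a from -0.513 to 0.136.

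The replicate block, a term for each pair, left the genotype calls at 0, and the exact sign-flip test over the 4 pairs gave p = 1 for both shares, 0.5 for median depth and 0.5 for the Calb2 share. Apart from the sex calls, the Calb2 and Cck calls and the sign of the Vip difference given above, it changed no other call.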

Other observations

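The levels of Vip nuclei differed between dual-indexed (replicate 2) and single-indexed (replicate 1) libraries. This comparison was chosen after seeing the data. With terms for sex, genotype and index type, edgeR's quasi-likelihood test called 214 of 6188 genes (3.46%), 123 higher in dual-indexed and 91 higher in single-indexed libraries. Each genotype and sex had 1 library of either kind, and what else differed between the replicates was not tested.

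Vip itself, which the rule used, stood at 1360 to 1789 CPM in the 4 single-indexed and 652 to 1110 CPM in the 4 dual-indexed libraries, without overlap (log2 difference, dual minus single, -0.94). Of the 14 other genes tested of the neuropeptide and receptor list, 5 were called lower and 0 higher in dual-indexed libraries, and their median log2 difference was -0.66. Of the 41 cytosolic ribosomal protein genes tested, 6 were called lower and 0 higher, and 40 had the lower level in dual-indexed libraries (median log2 difference -0.93). Crh stood at 142 and 59.0 CPM (single and dual means; log2 -1.23, edgeR adjusted p 0.0051), Tac2 at 164 and 77.7 CPM (-1.03, 0.0152), Cck at 136 and 70.5 CPM (-0.94, 0.0167) and Penk at 113 and 62.5 CPM (-0.84, 0.0329). Npy (log2 -1.23), the chemokine Cxcl14 (-1.05), the nuclear noncoding RNA Malat1 (-0.76) and Cnr1 (-0.57) were also lower in dual-indexed libraries.

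Pde10a, Gria1, Htr2c and Reln lay the opposite way. Pde10a stood at 607 and 1896 CPM (log2 1.64), Gria1, an AMPA receptor subunit, at 738 and 1209 CPM (0.73), Htr2c at 166 and 262 CPM (0.66) and Reln at 69.6 and 123 CPM (0.84). Igf1 was at -0.02, and the class markers Prox1 (0.31, edgeR adjusted p 0.268), Npas1 (-0.36, 0.391) and Htr3a (-0.59, 0.431) were not called.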
